A study of Gallus gallus with 8 samples.

Results

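Open chromatin regions of the chicken embryonic retinal pigment epithelium (RPE) that gave a strong ATAC-seq signal, and whose mean signal differed little between stages and after treatment, are described here. A region was taken when it lay on chromosomes 1 to 28, was at most 5000 bp wide, had a mean of at least 1000 normalized read counts over the 8 libraries, and changed by less than 0.25 on the log2 scale (a factor of 1.19) in each of 4 comparisons of group means, with 1 added to each mean. Of 89824 open regions 2414 (2.69%) met this rule, which is 21.9% of the 11019 strong regions, meaning those that met the limits on chromosome, width and signal. The other 8605 are called other strong regions below. Because the signal itself chose these regions, their small changes are given as a description and were not tested.

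ATAC-seq uses the Tn5 transposase to insert sequencing adapters where DNA is not covered by nucleosomes, so that reads accumulate at promoters, enhancers and insulators in use. Promoters of genes that most cells need are typically open in many tissues and conditions, whereas enhancers tend to open and close with cell type and signal. The RPE is the pigmented sheet behind the neural retina, and in the chicken embryo it can be turned towards neural retina by fibroblast growth factor 2 (FGF2) during a short window that has closed by the later stage studied here.

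The 4 groups held 2 libraries each, and each library came from the RPE of 2 chicken embryos. The sources differ on the eggs: the labels give White Leghorn eggs, while the methods give SPAFAS pathogen-free eggs for this assay, so the strain is uncertain. E5 6hPR+FGF2 and E4 6hPR+FGF2 were RPE collected 6 hours after retinectomy, the surgical removal of the neural retina, with heparin beads carrying FGF2 placed in the eye cup, at embryonic day 5 (Hamburger-Hamilton stage 26) and embryonic day 4 (stage 24). E5 RPE and E4 RPE came from developing eyes of the same stages. No library of retinectomy without FGF2 was used, so that removal of the retina and FGF2 cannot be told apart, and the labels give neither the sex of the embryos nor a batch. Nothing in the labels says more of how replicates were separated than that each is a biological sample. The RPE is a dissected sheet, and start sites of RPE, neural retina, mesenchyme and blood marker genes lay outside the stretch with gene annotation, so the tissue label could not be checked against markers.

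The regions carried between 11.8% and 12.7% of the signal of each library. The size and evenness of this share follow in part from the limits on signal and change. All strong regions together took 54.2% to 57.8%. The 2414 stable regions covered 4.94 Mb. They took 12.0% and 12.6% of all normalized reads in E5 6hPR+FGF2 replicates 1 and 2 and 12.7% in both E4 6hPR+FGF2 libraries. In E5 RPE it was 12.2% and 11.8%, and in E4 RPE 12.2% and 12.3%. Reads within the stable regions ran from 3022500 to 8857277 per library, out of 25233633 to 72884966 reads in all open regions. The fewest in any one stable region was 382, in E5 6hPR+FGF2 replicate 1. The counting error of a region, as a Poisson SD on the log2 scale, had a median between 0.026 and 0.045 over the libraries and reached 0.074 at 382 reads.

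The median normalized read count of the 2414 regions was 1896 and 2196 in E5 6hPR+FGF2, 1943 and 2012 in E4 6hPR+FGF2, 2114 and 2044 in E5 RPE, and 2032 and 2036 in E4 RPE. The 2 treated E5 libraries thus stood at the opposite ends of the range and enclosed all other libraries. A region was at its highest in E5 6hPR+FGF2 replicate 2 in 985 cases (40.8%) and in E5 RPE replicate 1 in 580 cases, and at its lowest in E5 6hPR+FGF2 replicate 1 in 806 cases (33.4%). The same replicates were the highest and the lowest for 32.6% and 25.7% of the other strong regions, so the pattern was not particular to the stable ones.

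**Figure D1:**
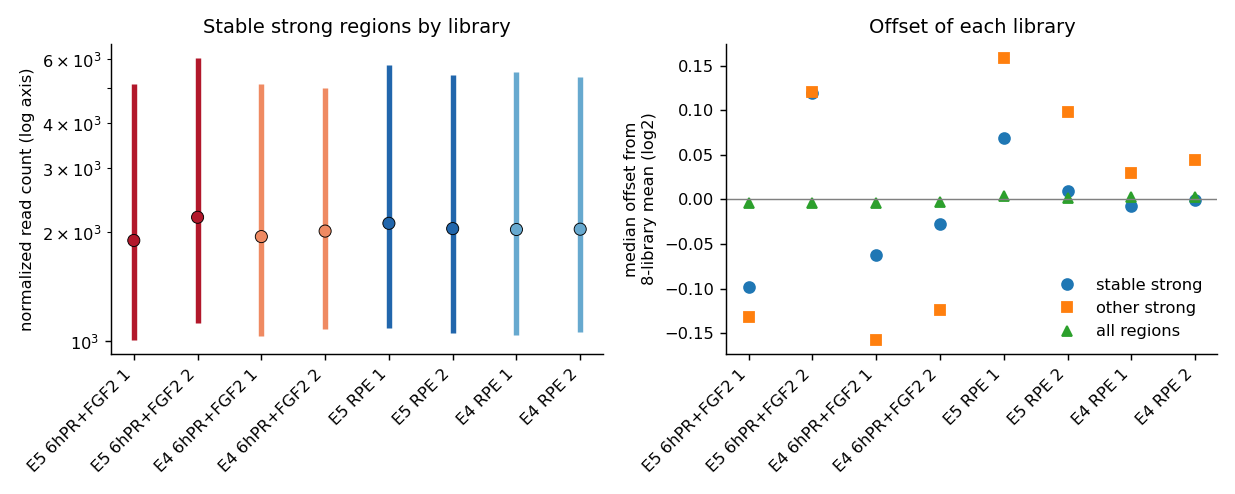
Left, normalized read count (log axis) of the 2414 stable strong regions in each of the 8 libraries, with the median as a point and the 5th to 95th percentile as a bar. Right, the median offset of each library from the mean of the 8 libraries on the log2 scale for stable strong, other strong and all regions. E5 6hPR+FGF2 replicates 1 and 2 lie at -0.10 and 0.12 for the stable regions, while the median over all regions stays near 0 in every library.

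Between the highest and the lowest of the 8 libraries 2342 of the 2414 regions (97.0%) differed by less than 1.5-fold. The share was 28.7% among other strong regions and 11.1% among all regions. All 2414 stayed under 2-fold, against 76.7% of the other strong and 34.4% of all regions. These shares follow in part from the rule, which held the group means close but set no limit on single libraries.

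The comparison of treated with developing RPE at E5 removed the most strong regions and the stage comparison of developing RPE the fewest. The share of strong regions within the limit was 42.7% for 6hPR+FGF2 against developing RPE at E5, 52.3% for the same contrast at E4, 63.1% for E5 against E4 in 6hPR+FGF2 RPE and 74.7% for E5 against E4 in developing RPE. Over all regions the shares were 25.2%, 32.8%, 40.4% and 44.0%, and all 4 limits were met by 6.98%. Of the 8605 other strong regions 3216 passed a treatment limit and no stage limit, 1070 a stage limit and no treatment limit, and 4319 both kinds. Other strong regions had median log2 changes of 0.08 for stage in developing RPE and 0.17 in 6hPR+FGF2 RPE. For treatment they were -0.19 at E4 and -0.16 at E5. Equal library totals gave 0.0007, 0.04, -0.08 and -0.10 in this order. Comparisons that use E5 6hPR+FGF2 also carry the larger replicate spread of that group, given below. The part of scaling and of this spread in the shares and their order was not tested.

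**Figure D2:**
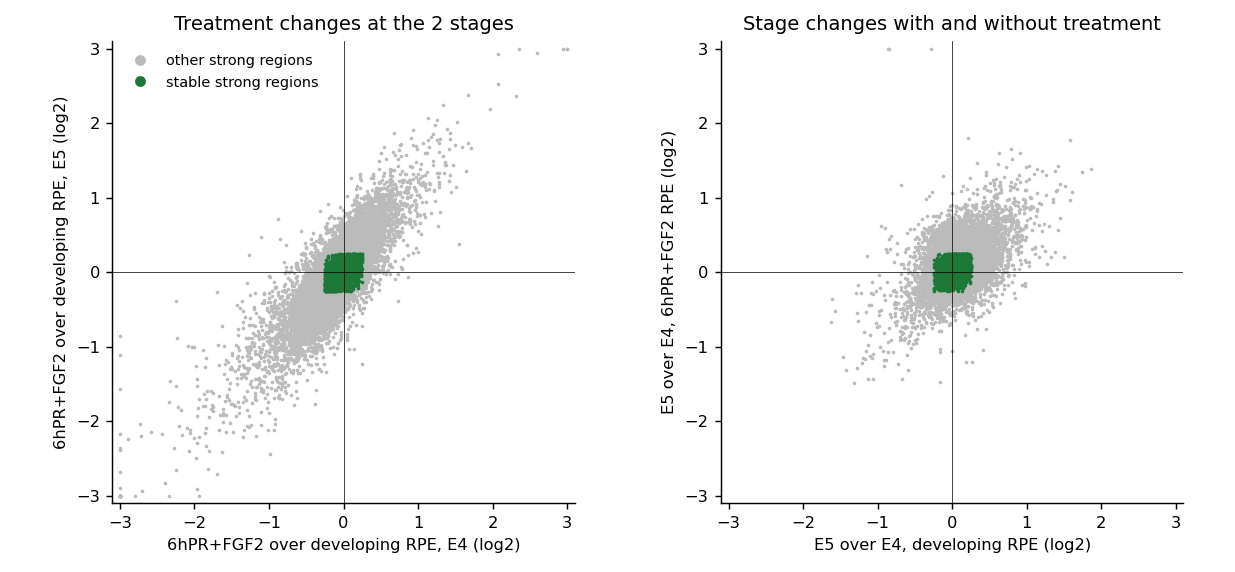
Each point is 1 of the 11019 strong regions, with the treatment change at E4 (x axis) against that at E5 (y axis) on the left and the stage change in developing RPE (x axis) against that in 6hPR+FGF2 RPE (y axis) on the right, all as log2 ratios of group means, with values beyond 3 drawn at 3. The 2414 stable regions fill the centre of the cloud, as the rule demands, and have no gap around them.

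Within the limits the regions were not centred exactly on 0. The median log2 change was 0.07 for E5 against E4 in 6hPR+FGF2 RPE, with 1670 regions above 0, and 0.05 in developing RPE, with 1601 above 0. For 6hPR+FGF2 against developing RPE it was -0.03 at E5, with 1042 regions above 0, and -0.05 at E4, with 919 above 0. The shares above 0 were 69.2%, 66.3%, 43.2% and 38.1% in this order, against 71.3%, 65.9%, 40.8% and 33.0% of other strong regions. Over all regions they were 53.5%, 52.1%, 48.4% and 47.3%. The lean was thus not particular to the stable regions. All 4 medians of the stable regions changed sign when libraries were scaled to equal totals, where they were -0.06, -0.03, 0.04 and 0.06 in the same order. The median of all regions moved with that scaling as well, and was -0.07, -0.05, 0.04 and 0.07, against 0.04, 0.02, -0.03 and -0.04 as deposited.

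The precision of the changes was limited by replicates. In a limma fit over all 89824 regions the standard error of a change had a median of 0.13 over the stable regions. The 95% interval had a median half-width of 0.30, against 0.32 for other strong and 0.61 for all regions. The fit gave each region 1 error shared by all groups, so these values were the same for all 4 comparisons. The replicate SD of stable regions had a median of 0.158 in E5 6hPR+FGF2 and 0.061 to 0.065 in the other groups. The intervals thus do not give the precision of each comparison on its own. All 4 intervals lay within 0.5 log2 units of 0 in 1470 of the 2414 regions (60.9%), and within 1 unit in every one. The shares were 0.01% and 71.9% of other strong regions, and 2.09% and 24.7% of all regions. Since the rule kept every change of a stable region under 0.25, these shares follow in large part from it and are no sign of stability. At a half-width of 0.30, a change somewhat larger than the limit could not be told from a smaller one in a single region.

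Replicates differed by a median close to the limit in E5 6hPR+FGF2 and by less in the other groups. The rule set no limit on this difference. It used means of the same libraries, so the spread of the chosen regions is not independent of the choice. The SD between replicates, pooled over the 4 groups on the log2 scale, had a median of 0.113 in the stable regions, 0.140 in other strong and 0.256 in all regions. By group the median for the stable regions was 0.158 in E5 6hPR+FGF2, 0.065 in E4 6hPR+FGF2, 0.061 in E5 RPE and 0.065 in E4 RPE. The treated E5 pair thus had the largest spread, and its replicate 1 was lower than replicate 2 by a median of 0.22 on the log2 scale. These 2 libraries held 25233633 and 33925829 reads in open regions, and their counting error had medians of 0.045 and 0.038 log2 units. E4 RPE replicate 1, from a pair with an SD of 0.065, held 34595299 reads. The part of depth in the spread of the treated E5 pair was not tested. All 4 pairs of replicates were within 0.25 in 1139 stable regions (47.2%), against 29.6% of other strong regions, and at least 1 pair was past 0.5 in 86 (3.56%), against 12.6%.

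Choice by 1 replicate carried over to the other only in part. The rule applied to replicate 1 of each group chose 1804 regions, of which 602 (33.4%) met all 4 limits in replicate 2, against 14.5% of the strong regions not chosen. Applied to replicate 2 it chose 1960, of which 612 (31.2%) met them in replicate 1, against 13.3%. Chosen regions thus met the limits in libraries that had not chosen them more than 2 times as often as the rest, but about 2 in 3 did not. With a limit of 0.5 in the second replicate the shares were 87.1% against 54.8% and 81.5% against 46.8%. Of the regions chosen on replicate 1, 93.2% were within 0.25 in replicate 2 for E5 against E4 in developing RPE (73.9% of strong regions not chosen), 86.4% for treatment at E4 (42.0%), 53.4% for E5 against E4 in 6hPR+FGF2 RPE (47.7%) and 56.0% for treatment at E5 (45.8%). Of those chosen on replicate 2, the shares in replicate 1 were 74.8% (57.5%), 79.6% (46.5%), 82.3% (63.9%) and 48.9% (30.6%) in the same order. Chosen regions were above the rest in every comparison, and the gap was widest for treatment at E4. Chosen on replicate 1, regions had median changes in replicate 2 of 0.22 for stage in 6hPR+FGF2 RPE and 0.21 for treatment at E5. Strong regions not chosen had 0.21 and -0.02. For stage in developing RPE and treatment at E4 the medians were 0.03 and 0.02, against 0.06 and -0.17 in those not chosen. Chosen on replicate 2, regions had medians in replicate 1 of -0.25 for treatment at E5 and -0.07 to 0.11 otherwise. Strong regions not chosen had -0.23 for treatment at E5 and -0.16 to 0.10 otherwise. The part of these shifts in the carried shares was not tested. After scaling to equal totals, an alternative chosen after these values had been seen, the carried share was 53.0% and 42.7%, against 17.5% and 12.4% of strong regions not chosen.

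**Figure D3:**
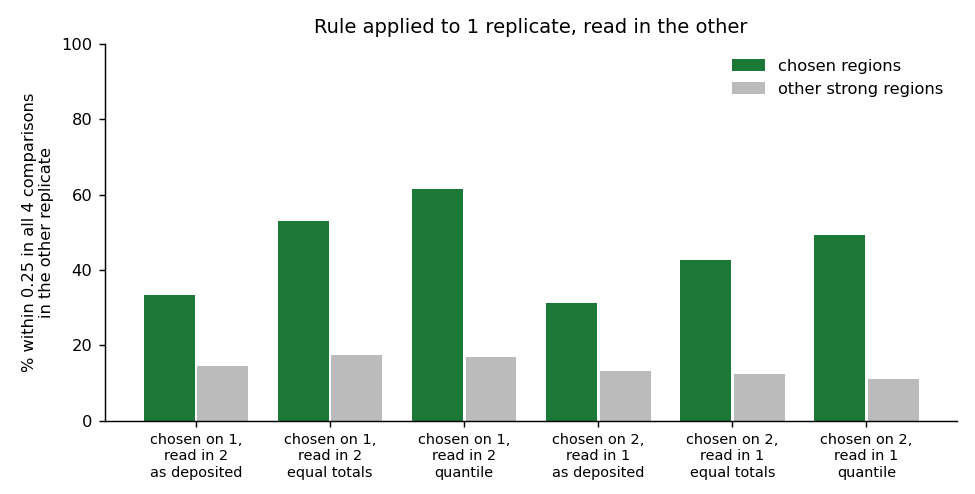
Bars give the percent of regions within 0.25 log2 units in all 4 comparisons in the replicate that did not choose them, for chosen strong regions (green) and strong regions not chosen (grey), with values as deposited and under 2 other scalings. Chosen regions are above the rest in each of the 6 pairs, at 33.4% and 31.2% as deposited, and the highest of all is 61.6%.

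Membership of single regions depended on single libraries. Only 700 of the 2414 regions (29.0%) met the rule after each of the 8 libraries was left out in turn. Without E5 6hPR+FGF2 replicate 1 the rule gave 1904 regions, 1542 of them among the 2414, and without replicate 2 of that group 2312, with 1681 shared. Scaling to equal totals gave 2988 with 1872 shared, and 1710 (70.8%) met the rule under the deposited values, equal totals, TMM scaling and quantile normalization alike.

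The 4 regions of highest mean signal were on chromosomes 3, 13, 2 and 5. The highest, chr3:25092320-25096480, had 9674 and 11876 normalized counts in E5 6hPR+FGF2, 9959 and 10036 in E4 6hPR+FGF2, 12700 and 11110 in E5 RPE and 11042 and 10806 in E4 RPE. Both E4 6hPR+FGF2 libraries were below all developing libraries and E5 RPE was above E4 RPE, while the treated E5 libraries spanned both E4 groups. The treatment change at E4 was -0.13 on the log2 scale. The fitted standard error of 0.13 is shared by all 4 comparisons and includes the spread of the treated E5 pair. It thus does not give the precision of the change at E4 on its own. The next, chr13:10978130-10981630, chr2:6805440-6810440 and chr5:28551640-28555600, had means of 10118, 9745 and 9734 over the 8 libraries and largest absolute changes of 0.19, 0.17 and 0.21.

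The region whose largest change was the smallest was chr12:16691830-16693720, with 2072 and 2209 normalized counts in E5 6hPR+FGF2, 1964 and 2253 in E4 6hPR+FGF2, 2139 and 2156 in E5 RPE and 2254 and 1997 in E4 RPE. Its 4 changes were at most 0.02 in size, while its 95% intervals reached 0.28 to either side. The next 3, chr28:2522370-2523800, chr4:37954520-37956000 and chr4:8201210-8203310, had largest changes of 0.02, 0.02 and 0.03. In chr4:37954520-37956000 the treated E5 libraries held 1444 and 1910 normalized counts and so lay further apart than any 2 group means.

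The smallest spread between replicates was in chr23:5490860-5494770, with 4238 and 4262 normalized counts in E5 6hPR+FGF2, 4295 and 4237 in E4 6hPR+FGF2, 4152 and 4062 in E5 RPE and 3735 and 3674 in E4 RPE. There E4 RPE was below all other libraries, at a log2 change of 0.20 for E4 6hPR+FGF2 against E4 RPE. The largest spread was in chr21:1153860-1156420, where replicate 2 was above replicate 1 in every group, with 1486 and 2582 normalized counts in E5 6hPR+FGF2, 1585 and 2205 in E4 6hPR+FGF2, 1412 and 2237 in E5 RPE and 1744 and 2193 in E4 RPE. Its replicates had an SD of 0.42 in log2 units and its 95% intervals had a half-width of 0.64, so that the small change of its group means says little about single libraries.

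The limits cut through a continuum. Just inside the limit on change, chr4:16561720-16563910 and chr6:35919060-35921040 had largest absolute changes of 0.25 after rounding, and so did the 2 just outside it, chr10:2189990-2191590 and chr4:66501890-66503330. Just inside the limit on signal, chr26:2141250-2142250 and chr17:6715060-6716110 had means of 1001 and 1001, and just outside it chr21:4262490-4264380 and chr18:10371760-10373110 had 999.8 and 999.4. The widest regions inside, chr2:6805440-6810440 and chr1:139995080-140000080, were both 5000 bp wide, and the narrowest outside, chr12:16382280-16387290 and chr23:4588320-4593360, were 5010 and 5040 bp.

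In width the stable regions resembled other strong regions. Their median width was 1830 bp, from 660 bp at chr25:3867970-3868630 to 5000 bp, against 1810 bp for other strong regions and 530 bp for all 83389 regions that met the limits on chromosome and width. Width and mean signal went together, with Spearman's rho of 0.53 across the 2414 regions and 0.39 across the other strong regions, a description in which all regions share the same libraries and a wider region collects more reads. Mean signal showed little relation to the SD between replicates (rho = -0.05) or to the largest absolute change (rho = 0.07).

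The chicken genome has a few large macrochromosomes and many small, gene-dense microchromosomes. Taking chromosomes 1 to 5 as macrochromosomes, 6 to 10 as intermediate and 11 to 28 as microchromosomes, 37.9% of the stable regions were on microchromosomes (95% Wilson interval 36.0% to 39.9%), against 34.9% of other strong regions (33.9% to 35.9%) and 28.6% of all regions within the limits on chromosome and width. The order of stable and other strong regions turned when regions were chosen after scaling to equal totals (33.1% against 36.5%) or quantile normalization (32.3% against 36.9%). Of the 433 strong regions that were higher by at least 0.5 log2 units after treatment at both stages 55.7% were on microchromosomes. Of the 1001 that were lower by as much it was 26.3%. These 2 sets were taken from the values as deposited only. Stable and other strong regions both lay between them, so this place was not particular to the stable ones.

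By chromosome the stable share of strong regions ran from 32.0% on chromosome 20 (89 of 278, 95% Wilson interval 26.8% to 37.7%) and 30.5% on chromosome 10 (106 of 348, 25.9% to 35.5%) down to 15.1% on chromosome 27 (27 of 179, 10.6% to 21.1%) and 13.3% on chromosome 16 (2 of 15, 3.74% to 37.9%). The intervals cover counting error only. They lay above the share of 21.9% over all chromosomes for chromosomes 10, 12, 17 and 20 and below it for chromosomes 2 and 27, and chromosome 16 held too few regions to place.

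**Figure D4:**
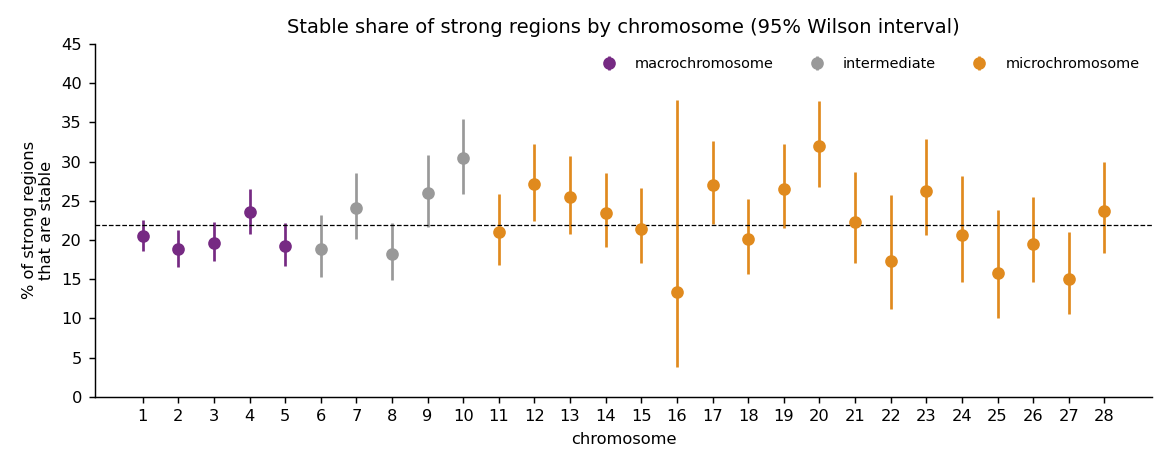
Percent of strong regions that were stable on each of chromosomes 1 to 28, with 95% Wilson intervals as bars and the share over all chromosomes (21.9%) as a dashed line. Chromosomes 20 and 10 stand highest at 32.0% and 30.5%, and most other intervals cross the line.

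Of the 2414 stable regions 183 (7.58%) had another stable region as the next open region within 10 kb, in 88 pairs and 2 longer runs. A stable region was next to 5.37% of other strong regions and to 3.95% of all regions within the limits on chromosome and width that were not stable. The longest run had 4 regions, between chr17:8094540-8096780 and chr17:8106650-8108460, with mean signals of 1381, 1409, 1735 and 1661 normalized counts.

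The closest open regions that were not stable changed about as often as those beside other strong regions. A neighbour within 10 kb was found for 2117 stable regions (87.7%), at a median gap of 1850 bp and with a median signal of 188 normalized counts, far below that of the stable regions. It changed by at least 1 log2 unit after treatment in 22.1% of cases at E5 and 13.9% at E4. Beside other strong regions the shares were 23.5% and 14.2%, and over all regions within the limits on chromosome and width that were not stable 26.9% and 16.3%. The neighbours of stable regions had a median treatment change of 0.18 on the log2 scale at both stages, against 0.07 at E5 and 0.10 at E4 beside other strong regions. Over all regions within those limits that were not stable it was -0.03 at E5 and -0.04 at E4. Neighbours with low signal have larger counting error, and no test was made since neighbouring regions are not independent.

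In 239 of the 2117 cases the neighbour changed by at least 1 log2 unit at both stages, 182 times upwards and 57 times downwards. The same count was not made beside other strong regions, so neither number nor direction can be called particular to stable regions. The following pairs were chosen after their values had been seen, to show how sharp such a border can be. The stable region chr5:23924400-23927670 had 2743 and 3007 normalized counts in E5 6hPR+FGF2, 2491 and 2770 in E4 6hPR+FGF2, 2798 and 2725 in E5 RPE and 2346 and 2413 in E4 RPE. Only 160 bp away, chr5:23927830-23930720 had 1797 and 1936 in E5 6hPR+FGF2, 1760 and 2352 in E4 6hPR+FGF2, 649.9 and 721.6 in E5 RPE and 743.9 and 862.6 in E4 RPE, higher after treatment by 1.44 log2 units at E5 and 1.35 at E4. In the first region treated and developing libraries overlapped at E5. At E4 both treated libraries were above both developing ones, at a log2 change of 0.14. In the second region treated and developing libraries lay wholly apart at both stages.

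The opposite border was found on chromosome 3. The stable region chr3:42162320-42164600 had 2346 and 2811 normalized counts in E5 6hPR+FGF2, 2246 and 2450 in E4 6hPR+FGF2, 2523 and 2502 in E5 RPE and 2459 and 2373 in E4 RPE. At 3850 bp from it, chr3:42168450-42170090 had 543.8 and 577.4 in E5 6hPR+FGF2, 899.2 and 793.7 in E4 6hPR+FGF2, 2481 and 2149 in E5 RPE and 1607 and 2049 in E4 RPE. All 4 treated libraries were below all 4 developing ones, with a log2 change of -2.04 at E5 and -1.11 at E4.

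Gene annotation of the GRCg6a build was used for 2 stretches of chromosome 1, from 20010 to 27315070 and from 100000051 to 119137045. The annotation is the one made for these open regions and their summits. In the second stretch it covered 1107 of 1250 open regions, and the 143 left out, which hold no stable region and 16 other strong regions, are in no count here. In the first stretch a start site was counted when it lay within the region. In the second, distances were from summits and the direction of a gene was not always known. A start site of unknown direction counted there only when both possible positions lay within the region, so some may be missed. Of the 60 annotated stable regions, 40 (66.7%) held an annotated start site, against 119 of 240 other strong regions (49.6%) and 92 of 2717 regions of under 1000 normalized counts (3.39%). Among strong regions that differed by at least 0.5 log2 units after treatment at both stages, 2 of 6 that were higher and 10 of 38 that were lower held one. In the 2 stretches apart the shares were 24 of 35 and 16 of 25 stable regions, against 73 of 152 and 46 of 88 other strong regions. This excess all but disappeared without E5 6hPR+FGF2 replicate 1, where the share was 53.1% of 49 stable regions, against 51.9% of other strong regions. Without any other library the share of stable regions stayed between 62.9% and 77.1%. Leaving out a library also changes which regions are chosen. Counts of this size do not settle whether the excess rests on that library.

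Read from the start sites, 260 annotated regions held one, of which 40 (15.4%) were stable, 119 (45.8%) strong but past a limit, 92 (35.4%) under the signal limit and 9 over the width limit. Of strong regions holding a start site 25.2% were stable, against 14.2% of the 141 annotated strong regions without one. Over all chromosomes 21.9% of strong regions were stable. This is the excess given above seen from the other side, and it has the same limits. Gene symbols could be given to 200 start sites, of which 34 (17.0%) lay in a stable region, 103 in another strong region, 62 in a region under the signal limit and 1 in a region over 5000 bp.

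**Figure D5:**
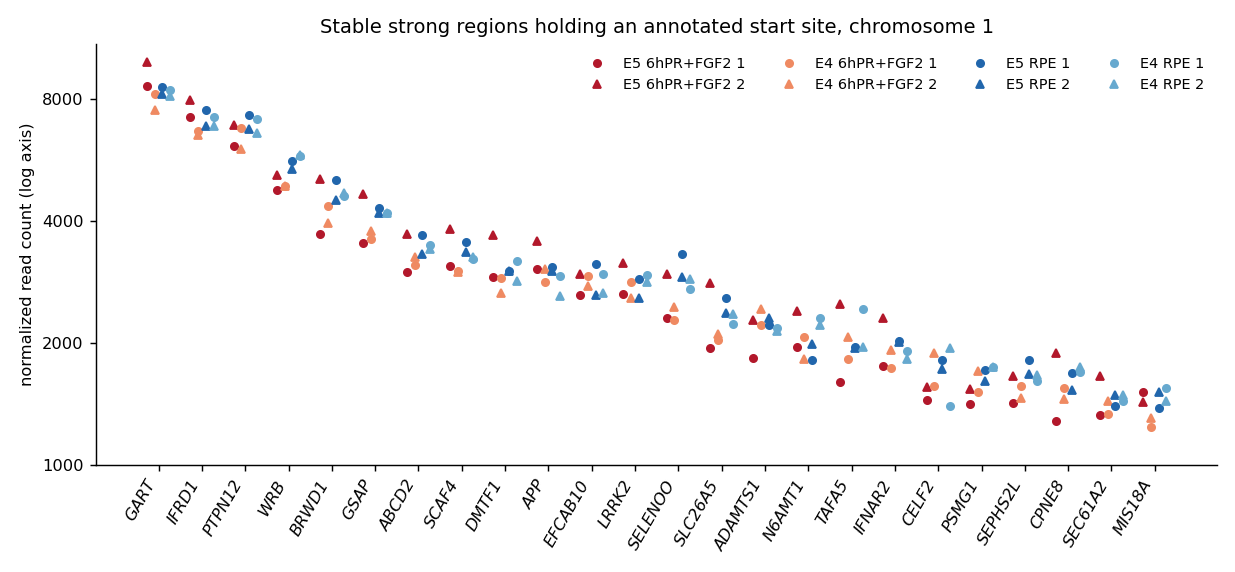
Normalized read counts (log axis) in the 8 libraries for the 24 stable regions on chromosome 1 with the highest signal that hold an annotated start site, named by gene. Colours are groups, circles replicate 1 and triangles replicate 2; the highest and the lowest library of a gene differ by 1.20 to 1.56-fold, and E5 6hPR+FGF2 replicate 2 is the highest for 15 genes.

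The 24 start-site regions with the highest signal ran from GART to MIS18A. The roles given below are those of the human or mouse proteins, and accessibility at a start site is not a measure of transcription. The highest and the lowest of the 8 libraries differed by a median of 1.31-fold over these genes. E5 6hPR+FGF2 replicate 2 was the highest library for 15 and replicate 1 of that group the lowest for 11. Treated and developing libraries overlapped for 19 of the 24 at E5 and for 9 at E4, against 67.7% and 50.4% of all 2414 stable regions and 29.1% and 37.5% of all open regions. At E4 20 of the 24 had a treated mean below that of developing RPE, as did 61.9% of the stable and 52.7% of all regions. With equal totals, an alternative added after seeing the data, it was 14 of the 24, 33.0% of the stable and 45.1% of all regions.

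Among genes of metabolism and protein handling, the GART region (chr1:106733030-106737290), at the start of an enzyme of purine synthesis, had 8610 and 9843 normalized counts in E5 6hPR+FGF2, 8230 and 7505 in E4 6hPR+FGF2, 8538 and 8214 in E5 RPE and 8424 and 8123 in E4 RPE. Its largest change was 0.23, between treated E5 and treated E4 RPE, with a standard error of 0.11. The WRB region (chr1:109331800-109333920), whose protein helps to insert tail-anchored proteins into the endoplasmic reticulum, had 4754 and 5195 in E5 6hPR+FGF2, 4871 and 4871 in E4 6hPR+FGF2, 5601 and 5378 in E5 RPE and 5763 and 5799 in E4 RPE. Here the treated libraries were all below the developing ones although the means stayed inside the limit, with log2 changes of -0.14 at E5 and -0.25 at E4 against a standard error of 0.11. PSMG1 (a chaperone of proteasome assembly), SEC61A2 (a subunit of the protein translocon) and N6AMT1 (a methyltransferase of a translation termination factor) had means over the 8 libraries of 1622, 1444 and 2070 normalized counts and largest absolute changes of 0.17, 0.11 and 0.25.

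Among genes of RNA and chromatin, the BRWD1 region (chr1:109322070-109324180), for a bromodomain protein, had 3716 and 5077 normalized counts in E5 6hPR+FGF2, 4341 and 3944 in E4 6hPR+FGF2, 5048 and 4497 in E5 RPE and 4605 and 4673 in E4 RPE. It lies within 10 kb of the WRB region, and its 2 treated E5 libraries enclosed all others. SCAF4 (a regulator of transcript ends), DMTF1 (a Myb-like transcription factor), CELF2 (an RNA-binding regulator of splicing) and MIS18A (a factor that readies the centromere for its histone) had means of 3285, 3022, 1666 and 1422 normalized counts. Their largest absolute changes were 0.21, 0.25, 0.24 and 0.23, and for DMTF1 and MIS18A this was not the same comparison: DMTF1 was highest in treated E5 against treated E4 RPE, and MIS18A was lowest in treated against developing RPE at E4.

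Signalling and membrane genes were among the stable regions as well. The APP region (chr1:104120890-104122870), at the start of the amyloid precursor protein gene, had 3035 and 3557 normalized counts in E5 6hPR+FGF2, 2830 and 3035 in E4 6hPR+FGF2, 3067 and 3007 in E5 RPE and 2916 and 2608 in E4 RPE, with changes between 0.09 and 0.17. PTPN12, a tyrosine phosphatase, and LRRK2, a large kinase, had largest absolute changes of 0.11 and 0.10 at means of 6687 and 2799. The smallest largest change of the 24 was 0.05, at EFCAB10 (chr1:14150890-14152420), with 2623 and 2951 normalized counts in E5 6hPR+FGF2, 2925 and 2759 in E4 6hPR+FGF2, 3137 and 2623 in E5 RPE and 2957 and 2647 in E4 RPE. The largest difference between libraries, 1.56-fold, was at TAFA5, a secreted chemokine-like protein, with 1596 and 2486 in E5 6hPR+FGF2, 1829 and 2067 in E4 6hPR+FGF2, 1953 and 1937 in E5 RPE and 2418 and 1952 in E4 RPE. The remaining regions of the 24 were at IFRD1, GSAP, ABCD2 (a peroxisomal transporter of very long fatty acids), SELENOO, SLC26A5 (prestin, a motor protein of hair cells), ADAMTS1 (a secreted metalloprotease), IFNAR2 (a subunit of the type I interferon receptor), SEPHS2L and CPNE8, with largest absolute changes between 0.11 and 0.24.

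Gene groups were counted from fixed lists, and many genes named above, PTPN12, LRRK2 and IFNAR2 among them, were in no list. By group, 3 of 12 start sites of translation, folding and degradation genes were in stable regions, 3 of 10 of RNA processing genes, 4 of 15 of chromatin, transcription and replication genes, 1 of 13 of mitochondrial and metabolic genes and 1 of 11 of traffic and cytoskeleton genes, against 34 of 200 over all genes. In the list of neural, developmental and signalling genes it was 1 of 27, with 18 of the 27 under the signal limit and 8 strong but past a limit. The one was MET, the receptor of hepatocyte growth factor, with 900.1 and 1229 normalized counts in E5 6hPR+FGF2, 887.5 and 1184 in E4 6hPR+FGF2, 1098 and 969.9 in E5 RPE and 804.7 and 1103 in E4 RPE. The mitochondrial and metabolic group had 11 of 13 start sites in strong regions past a limit, among them NDUFA5, DLD and SOD1. It was 9 of 11 for traffic and cytoskeleton and 7 of 12 for translation, folding and degradation. For RNA processing it was 5 of 10, for chromatin, transcription and replication 8 of 15, and over all genes 103 of 200. Counts of this size give no order among the groups.

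The other 20 annotated stable regions were not counted as holding a start site. The 6 with the highest signal had means between 2806 and 7847 normalized counts. The highest, chr1:113481030-113483760, was intergenic with MED14 as the nearest gene and had 6556 and 8188 in E5 6hPR+FGF2, 7534 and 7052 in E4 6hPR+FGF2, 9259 and 8054 in E5 RPE and 8137 and 7994 in E4 RPE. The next was chr1:18983610-18985800, in an intron with BRD1 as the nearest gene, with 6964 and 8240 in E5 6hPR+FGF2, 6566 and 6414 in E4 6hPR+FGF2, 8234 and 7524 in E5 RPE and 7522 and 7147 in E4 RPE. In both regions the 2 treated E4 libraries were below both developing E4 libraries. The others were an intronic region at DDX3X, an intergenic region with no gene symbol, a promoter region at RIPPLY3 and an intronic region at USP6NL, with largest absolute changes of 0.24, 0.23, 0.18 and 0.11.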

How the data were processed

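ATAC-seq was performed on RPE nuclei by the authors. Per the methods, Trim Galore trimmed the reads, Bowtie2 aligned them to GRCg6a and Picard removed duplicates. HMMRATAC called open regions in each library, bedtools merged them, featureCounts counted reads and DESeq2 normalized the counts. No source used here states a shift of reads for the transposase, or whether coordinates start at 0 or 1, so values hold for whole regions. The deposited signal is a normalized read count, and 100% of values were whole reads within a tolerance of 1e-06 after division by 1 factor per library. The labels and the methods name different suppliers of the eggs, and the methods name no strain for this assay.

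Groups were taken from the labels. Changes are log2 ratios of group means plus 1. Standard errors and intervals came from limma 3.58.1 (R 4.3.3), fitted to log2(normalized count + 1) with 1 mean per group and a trend. They were checked on data simulated with the same spread in every group, so the check does not cover groups of unequal spread. The fit gave each region 1 error for all groups, although the spread between replicates differed between groups. By rule the text names the 4 regions of highest signal, the 4 of smallest largest change and 2 on either side of each limit. It also names those of smallest and largest replicate spread, and the narrowest and widest. In the annotated stretches it names up to 24 regions at start sites and 6 not counted as holding one. A start site counted as held when the annotated distance placed it inside the region. In the second stretch both directions had to place it inside, unless several summits of a gene gave its direction. None of the 831 gene identifiers matched the RefSeq table used here, so symbols are those of the study's annotation. The regions and gene lists were chosen with earlier results of these data known. Other limits, scalings and pseudocounts, edgeR 4.0.16 and DESeq2 1.42.0 on recovered reads, a replicate block and leaving out each library were tried. Promoter and motif searches were not run. Python 3.11.15 was used for counts and figures.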

Additional observations from a re-analysis of the deposited data

How the results depend on the processing

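The number of stable strong regions stayed within 1.5 times 2414 under other pseudocounts, TMM scaling, equal totals, quantile normalization, a limit of 0.3, a mean of at least 500, no width limit, each replicate alone, and changes fitted by limma, edgeR (2467) or DESeq2 (2407). It was 1480 with a limit of 0.2, 1244 with a mean of at least 2000, 5782 with no minimum mean and 1405 with a width of at most 2000 bp, each by construction of the limit. Leaving out 1 library gave 1904 to 2505 regions, the fewest without E5 6hPR+FGF2 replicate 1.

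The median half-width of the intervals was 0.25 with equal totals and 0.24 with quantile normalization, and between 0.27 and 0.38 when 1 library was left out. The pooled replicate SD of the stable regions was between 0.081 and 0.122 when 1 library was left out, since its pair then dropped out. The share on microchromosomes was 40.6% with a limit of 0.2, 33.1% with equal totals and 32.3% with quantile normalization; the cause was not tested. The median width was 1630 bp with a mean of at least 500 and 2190 bp with a mean of at least 2000. The share holding a start site was 53.1% with a mean of at least 500, and between 53.1% and 77.1% when 1 library was left out. The share carried over to the second replicate was 53.0% with equal totals and 61.6% with quantile normalization when chosen on replicate 1, and 42.7% and 49.4% when chosen on replicate 2. The share of neighbours past 1 log2 unit at E5 was 22.3% without E5 6hPR+FGF2 replicate 1 and 22.0% without replicate 2 of that group.

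Replicate numbers are shared between groups by the labels. Deviations of samples with the same number correlated between -0.21 and 0.33 over pairs of groups, so the numbers were not taken as pairs. With the replicate number as a block limma gave 2425 regions and a half-width of 0.30. Of 46 regions named above that met the rule, 40 kept all changes under 0.25 with equal totals, 24 without E5 6hPR+FGF2 replicate 1 and 28 without replicate 2 of that group. These regions held at least 382 reads in each library. The treated E5 pair had both the fewest reads and the largest spread between replicates, and the part of depth in that spread was not tested.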
